A study of Mus musculus with 4 samples.

Results

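The immediate early and heat shock genes Fos, Jun, Junb, Egr1, Atf3, Ier2, Btg2, Zfp36, Hspa1a and Hspa1b were examined in RNA-seq libraries of fractionated mouse hearts. These 10 genes were chosen by name, as mRNAs that are quickly induced and quickly lost and that report stress of tissue handling, at a time when earlier results of these data were known. The table holds 15746 genes and lists 9 of the 10. Fos is not listed, and its level is not analysed here.

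The mitochondrial fraction and the rest fraction, each with 2 libraries, came from wild-type hearts that the study describes as adult. Hearts perfused with PBS were minced, kept on ice with trypsin and homogenized. Low-speed centrifugation gave a pellet of cell debris, the rest fraction, and mitochondria were pelleted from the supernatant, opened at the outer membrane with digitonin and exposed to RNase A. Digitonin, RNase A and a fragmentation time set for mitochondrial samples were given for the mitochondrial fraction, so they cannot be told apart from the fraction. The fractions were compared to search for RNAs that reside in mitochondria. The labels do not tie the replicates to separate animals, and p-values therefore measure only the spread between these libraries, which may be technical.

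Immediate early genes are transcribed within minutes of a stimulus without a need for new proteins, because the factors that bind their promoters are already present and are switched on by phosphorylation. Their mRNAs are removed as quickly, in part through AU-rich elements in the 3′ UTR that are bound by ZFP36, and their protein products drive later waves of transcription. Hspa1a and Hspa1b encode inducible chaperones of the HSP70 family, which HSF1 turns on when proteins unfold. In heart tissue such genes respond to cutting, warming, ischaemia and enzymatic digestion.

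The sequences shown first are those on which the counting of the heat shock genes depends. Reads of 75 bases that fit several places or several genes were left out of the counts by the authors. In the GENCODE M21 transcripts, the coding sequences of Hspa1a (1926 bases with the stop codon) and Hspa1b (1929 bases) differed at 8 bases and by 1 codon, inserted in Hspa1b after base 1878 of Hspa1a. The encoded proteins of 641 and 642 residues differed at 0 residues apart from the inserted one. Counted from 1 at the start codon, the differences from Hspa1a to Hspa1b were A156G, T795G, A921G, A1380G, A1416G, A1629G, C1881G and G1884A. The first read-length stretch, bases 1 to 75, was identical in both genes, and a read from it cannot be assigned to either. It lies on the minus strand of GRCm38 at chr17:34971851-34971925 in Hspa1a and at chr17:34958933-34959007 in Hspa1b.
Hspa1a and Hspa1b, coding bases 1 to 75: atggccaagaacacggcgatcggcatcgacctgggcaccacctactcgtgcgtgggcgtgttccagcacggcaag
The stretch from base 1361 to 1435, chr17:34970491-34970565 in Hspa1a and chr17:34957573-34957647 in Hspa1b, holds 2 differences, in capitals, by which a read can be placed.
Hspa1a, coding bases 1361 to 1435: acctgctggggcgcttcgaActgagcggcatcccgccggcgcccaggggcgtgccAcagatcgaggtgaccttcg
Hspa1b, coding bases 1361 to 1435: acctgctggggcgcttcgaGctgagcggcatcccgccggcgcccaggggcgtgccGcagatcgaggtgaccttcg

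Of all stretches of 75 bases along the transcript, 61.7% (1785 of 2893) in Hspa1a and 55.8% (1524 of 2729) in Hspa1b also occurred in an annotated transcript of another gene. These genes were Gm10501, Gm20481, Hspa1l and the other gene of the pair. The share was 5.07% in Jun, where it came from the antisense transcript Junos, and 1.07% in Zfp36. It was 0% in Junb, Egr1, Atf3, Ier2 and Btg2. The values of Hspa1a and Hspa1b are therefore uncertain.

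The RefSeq promoters of Hspa1a and Hspa1b (GRCm38.p6) differed at 4 bases. For 8 of the 10 genes a RefSeq promoter was used, which holds 250 bases before and 50 after the annotated start. Ier2 had none in the RefSeq set, and none was used for Egr1, so its motifs were not searched. The 250 bases before the start of Hspa1a, chr17:34972157-34972406 on the minus strand, are printed with the match to the core of a heat shock element, GAANNTTC, in capitals. It starts at -104 and is at the same place in Hspa1b.
Hspa1a promoter: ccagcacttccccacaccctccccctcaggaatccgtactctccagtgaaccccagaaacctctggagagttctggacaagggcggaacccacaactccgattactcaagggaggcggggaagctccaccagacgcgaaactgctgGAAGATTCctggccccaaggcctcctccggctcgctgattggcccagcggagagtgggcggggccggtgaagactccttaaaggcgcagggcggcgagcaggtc
The promoter of Zfp36 is at chr7:28379229-28379478 on the minus strand. It is shown because Zfp36 was the tested gene whose fractions separated, as did those of 61.1% of all tested genes. It lies inside the annotated gene to which the counts belong, since the RefSeq start differs from the start of that annotation. Capitals mark a match to the EGR motif GCGNGGGCG at -105 and to the CArG box, the site of serum response factor, at -58.
Zfp36 promoter: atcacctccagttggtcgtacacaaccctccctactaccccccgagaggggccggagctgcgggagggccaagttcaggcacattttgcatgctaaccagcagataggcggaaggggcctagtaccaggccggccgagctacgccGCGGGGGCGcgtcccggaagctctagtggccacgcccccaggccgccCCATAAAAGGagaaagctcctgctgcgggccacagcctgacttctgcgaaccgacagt

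Motifs were searched on both strands of the 8 promoters and of all 32851 promoters of the same length, and a match is a description only. Like that of Zfp36, the promoter of Atf3 lies inside the annotated gene. GAANNTTC was present in 3 of the 8 (Jun, Hspa1a and Hspa1b) and in 7.86% of all promoters. TTCNNGAA, the other arrangement of its units, was in 0 of the 8 and in 8.52% of all. The cAMP response element TGACGTCA was found in Btg2 and in 1.79% of all promoters, and its core TGACG, which it contains, in Btg2, Atf3, Junb and Fos and in 20.8% of all. The CArG box was found in Zfp36 and in 1.63% of all, and GCGNGGGCG in Btg2 and Zfp36 and in 5.55% of all. The AP-1 site TGANTCA was in 0 of the 8 and in 7.81% of all.

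The 3′ UTR motif TATTTAT, to which ZFP36 binds, was found in 4 of the 9 listed genes, Jun, Atf3, Btg2 and Zfp36, and in 32.1% of the tested protein-coding genes. The 30 bases around a match are given with the motif in capitals, in the transcript's direction. Zfp36 had 3 matches and the others 1 each. All 4 lie on the minus strand, at chr4:95049078-95049107 for Jun, chr1:191170337-191170366 for Atf3, chr1:134077248-134077277 for Btg2 and chr7:28376962-28376991 for Zfp36.
Jun: ttgcttgtgcaTATTTATaatagcgttcgt
Atf3: aaaatattactTATTTATcccagtattcct
Btg2: aaatgaagagcTATTTATacatgttttttt
Zfp36: gggcccttTATTTATgacgacttTATTTAT

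The deposited values are normalized counts, that is, reads per gene divided by a size factor of each library and rounded by the authors. About 1150000 and 2080000 reads outside the mitochondrial chromosome lay behind mitochondrial replicates 1 and 2, and about 9680000 and 7630000 behind rest replicates 1 and 2. A single read was worth 3.87 and 2.55 normalized counts in mitochondrial replicates 1 and 2, against 0.264 and 0.365 in those of the rest fraction. The level that 3 reads reach was thus 11.6 and 7.65 normalized counts in mitochondrial replicates 1 and 2, against 0.793 and 1.10 in those of the rest fraction. Low values are accordingly measured less precisely in mitochondria. Such limits and all intervals of reads cover counting error only, since copies of a molecule made by PCR were not told apart. Cardiomyocyte markers were abundant in every library, with sums over Myh6, Tnnt2, Actc1, Ttn, Ryr2, Myl2 and Tnni3 between 305285 and 565752 normalized counts.

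**Figure D1:**
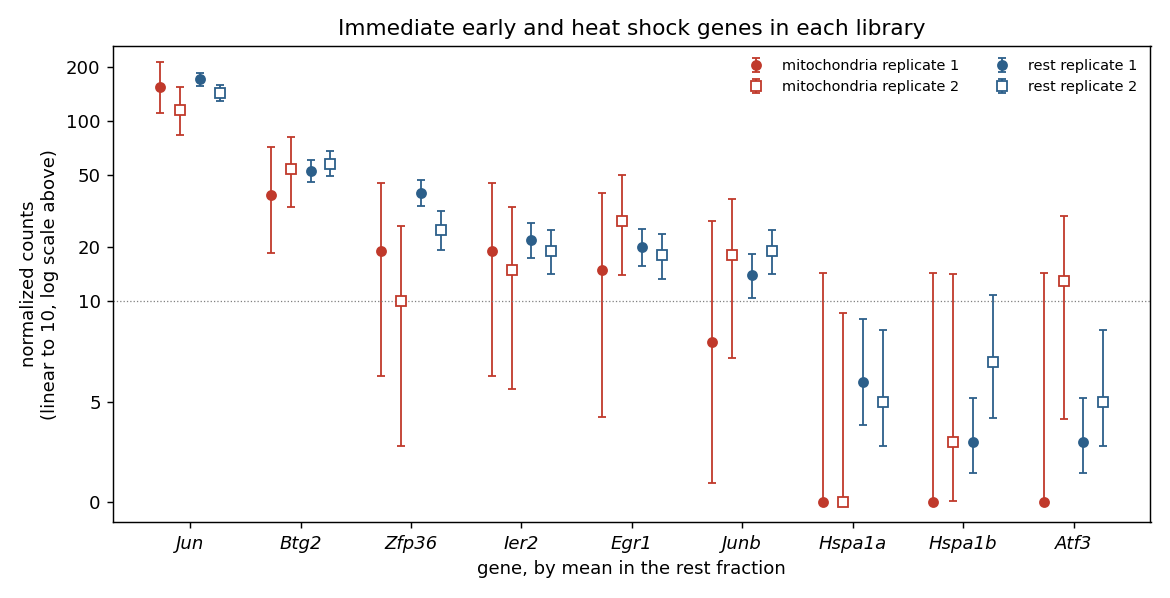
Normalized counts of the 9 listed genes in each of the 4 libraries, on an axis that is linear up to 10 and logarithmic above. Bars are exact Poisson 95% intervals of the reads behind each value, and the dotted line is the filter of 10 normalized counts. Jun lies at 115 to 170 in all libraries, and Hspa1a, Hspa1b and Atf3 lie at 13 or less.

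Of the 9 listed genes, 6 passed the filter of 10 normalized counts in 2 or more libraries and were tested, as were 12150 genes in all. At an adjusted p-value under 0.05 from limma's moderated test, 0 of the 6 were higher and 0 were lower in mitochondria, and 0 had an unadjusted p-value under 0.05. Of all tested genes, 2.16% were called higher and 1.39% lower at the adjusted threshold, 3.55% in all, and 30.3% had an unadjusted p-value under 0.05, 14.1% higher and 16.2% lower. The adjusted p-values of the 6 genes ran from 0.189 to 0.880. Fold changes are on the scale of log2 of the normalized count plus 1, and the added 1 shrinks those of low genes. Each is a difference of mean logs, which can lie above or below the log2 of the ratio of pooled reads. The median log2 fold change of the 6, mitochondria minus rest, was -0.26, with a range from -1.14 to 0.11, and that of all tested genes was -0.14. Without mitochondrial replicate 2 these medians were -0.41 and -0.11. The log2 fold change was negative in 5 of the 6 genes and in 56.2% of all tested genes. Both mitochondrial values were below both rest values in 1 of the 6 genes, Zfp36, as in 33.4% of all tested genes, and in 0 of the 6 were both above, as in 27.7% of all. Separation in either direction was found in 61.1% of all tested genes.

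**Figure D2:**
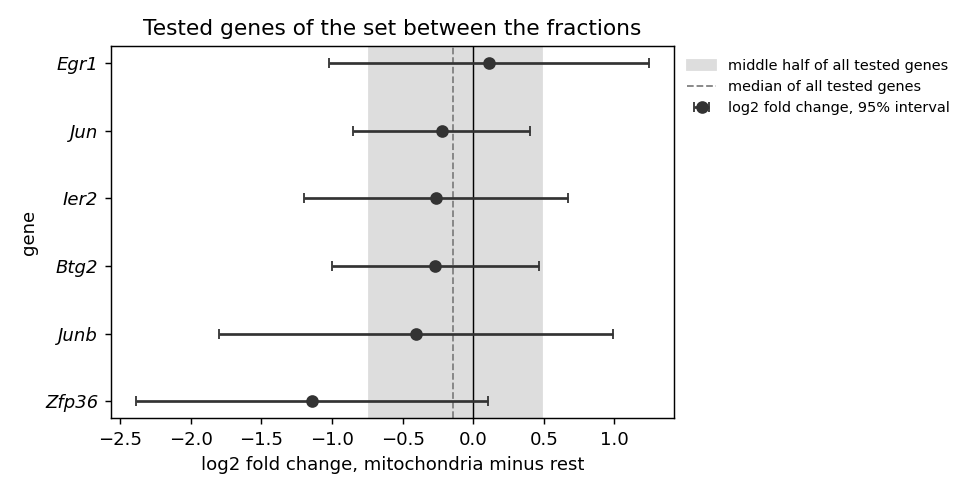
Log2 fold changes, mitochondria minus rest, of the 6 tested genes with 95% confidence intervals from limma. The grey band is the interquartile range of all 12150 tested genes, -0.74 to 0.49, and the dashed line their median, -0.14. All intervals cross 0, and the point of Zfp36, at -1.14, is the only point outside the band.

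Among the AP-1 genes, whose proteins pair into a transcription factor, Jun was the most abundant and the most precisely measured. Jun (ENSMUSG00000052684, chr4:95049034-95052222) had 155 and 115 normalized counts in mitochondrial replicates 1 and 2, against 170 and 143 in rest replicates 1 and 2. The ranges of the fractions overlapped. The means were 135 ± 28.3 and 156.5 ± 19.1 (SD, n = 2 each), which gave a log2 fold change of -0.22 (standard error 0.240, 95% interval -0.85 to 0.41, adjusted p = 0.561 from limma). These values rest on 85 reads in mitochondria and about 1034 in the rest fraction. The ratio of these reads, scaled as the authors did, was 0.824 (exact 95% interval 0.653 to 1.03), which compares the libraries and not the fractions. The log2 fold change was -0.01 without mitochondrial replicate 2 and -0.44 without mitochondrial replicate 1. Junos, an antisense gene whose exons overlap those of Jun, was listed at 0 to 5 normalized counts.

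Junb, which encodes a JUN relative that also pairs with FOS proteins, had 8 and 18 normalized counts in mitochondrial replicates 1 and 2, against 14 and 19 in those of the rest fraction (ENSMUSG00000052837, chr8:84974484-84978718). The lowest value, in mitochondrial replicate 1, came from 2 reads and lies below the level of 3 reads. The means were 13 ± 7.07 and 16.5 ± 3.54 (SD, n = 2 each), and the fractions overlapped. The log2 fold change was -0.41 (95% interval -1.80 to 0.99, adjusted p = 0.635 from limma), and it was 0.13 without mitochondrial replicate 1. An exon of Junb overlaps one of Prdx2 on the opposite strand, which had 342 to 461 normalized counts in mitochondria and 153 to 191 in the rest fraction. The sources used here do not give whether counting used the strand.

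Atf3 encodes a stress-induced factor of the ATF family that joins AP-1 complexes and limits the immediate early response. Atf3 (ENSMUSG00000026628, chr1:191170296-191218039) was listed at 0 and 13 in mitochondrial replicates 1 and 2 and at 3 and 5 in those of the rest fraction, in normalized counts, and did not pass the filter. In mitochondrial replicate 2 the value came from 5 reads, and in replicate 1 a count of 0 allows up to 14.3 normalized counts (exact Poisson 95% interval). The rest values came from about 11 and 14 reads. The ratio of reads was 2.01 (exact 95% interval 0.600 to 5.33), so that no difference was detectable at this depth.

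The other immediate early genes with a nuclear product were Egr1, a zinc finger factor induced through serum response factor, and Ier2, whose product is thought to act on transcription. Egr1 (ENSMUSG00000038418, chr18:34859823-34864984) had 15 and 28 normalized counts in mitochondria against 20 and 18 in the rest fraction. Both rest values fell between the mitochondrial values. The means were 21.5 ± 9.19 and 19 ± 1.41 (SD, n = 2 each). The log2 fold change was 0.11 (95% interval -1.02 to 1.24, adjusted p = 0.880 from limma) as scaled by the authors and -0.71 and -3.59 after scaling to the sum of reads without and with the mitochondrial chromosome. It was -0.32 without mitochondrial replicate 2.

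Ier2 (ENSMUSG00000053560, chr8:84661331-84662854) had 19 and 15 normalized counts in mitochondrial replicates 1 and 2, against 22 and 19 in those of the rest fraction. The fractions met at 19. The means were 17 ± 2.83 and 20.5 ± 2.12 (SD, n = 2 each), for a log2 fold change of -0.26 (95% interval -1.20 to 0.67, adjusted p = 0.649 from limma). The mitochondrial values came from 5 and 6 reads. Leaving out 1 library at a time moved the log2 fold change between -0.42 (without mitochondrial replicate 1) and -0.10 (without mitochondrial replicate 2).

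Btg2 and Zfp36 encode proteins that shorten the life of mRNAs. BTG2 recruits the CCR4-NOT deadenylase, and ZFP36 binds AU-rich elements and brings the same deadenylase to them. Btg2 (ENSMUSG00000020423, chr1:134075170-134079120) had 39 and 54 normalized counts in mitochondrial replicates 1 and 2, against 53 and 58 in those of the rest fraction, and the fractions overlapped. The means were 46.5 ± 10.6 and 55.5 ± 3.54 (SD, n = 2 each), which gave a log2 fold change of -0.27 (limma, adjusted p = 0.549, with a standard error of 0.279). It was -0.04 without mitochondrial replicate 1 and -0.50 without mitochondrial replicate 2. After scaling to the reads outside the mitochondrial chromosome it was -1.11 (limma, adjusted p = 0.0378), beside a median of -0.98 for all tested genes. In this scaling Btg2 was called lower, as were 3819 of the 12150 tested genes.

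Zfp36 (ENSMUSG00000044786, chr7:28376784-28380253) had 19 and 10 normalized counts in mitochondrial replicates 1 and 2, against 40 and 25 in rest replicates 1 and 2. Both mitochondrial values were below both rest values. The means were 14.5 ± 6.36 and 32.5 ± 10.6 (SD, n = 2 each). Its log2 fold change was -1.14 (standard error 0.476, 95% interval -2.38 to 0.11, adjusted p = 0.189 from limma), which did not pass the test. It was -1.57 without mitochondrial replicate 1 and -0.71 without mitochondrial replicate 2. The 9 mitochondrial reads and about 219 rest reads gave a ratio of 0.412 (exact 95% interval 0.186 to 0.797), again a comparison of libraries. Scaled to the reads outside the mitochondrial chromosome, Zfp36 was called lower, at -1.95 (limma, adjusted p = 0.0412). So were 3819 of the 12150 tested genes in this scaling, in which the median of all tested genes was -0.98. The antisense gene Gm44710, whose exons overlap those of Zfp36, is not listed.

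Hspa1a (ENSMUSG00000091971, chr17:34969190-34972156) was at 0 normalized counts in both mitochondrial libraries and at 6 and 5 in those of the rest fraction, which came from about 23 and 14 reads. Hspa1b (ENSMUSG00000090877, chr17:34956436-34959238) had 0 and 3 normalized counts in mitochondria, the latter from 1 read, and 3 and 7 in the rest fraction, from about 11 and 19 reads. Neither passed the filter. The rest values were above the level of 3 reads of their own libraries, but below that of the mitochondrial libraries, 11.6 and 7.65, so that an equal level in mitochondria would give fewer than 3 reads in each library, and no fold is given. For Hspa1a, 0 mitochondrial reads against about 37 allow a ratio of up to 1.05 (exact 95% interval). In a fit without the filter, Hspa1a was called lower (limma, adjusted p = 0.0484) while Hspa1b was not (limma, adjusted p = 0.363). In that fit 630 of 15746 genes were called lower. Both p-values depend on the pseudocount, which was not varied without the filter. Gm20481, whose exons overlap those of Hspa1a on the opposite strand, is not listed.

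Levels were compared between genes per kilobase of annotated exons. In the rest libraries Jun stood first with 49.1 normalized counts per kilobase, followed by Btg2 with 20.2, Ier2 with 13.5, Zfp36 with 9.37, Junb with 7.17 and Egr1 with 4.24. Atf3, Hspa1a and Hspa1b closed the order with 1.86, 1.85 and 1.78 per kilobase. The libraries of neighbouring genes did not overlap from Jun to Zfp36 and from Junb to Atf3. The ranges of Zfp36 and Junb overlapped, as did those of Atf3, Hspa1a and Hspa1b. With only the stretches of 75 bases that no other gene shares as length, Hspa1a and Hspa1b reached 4.96 and 4.15 normalized counts per kilobase in the rest fraction, against 4.31 for Egr1 and 52.9 for Jun.

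In the mitochondrial libraries the order was Jun with 42.3 normalized counts per kilobase, Btg2 with 17.0 and Ier2 with 11.2, whose ranges did not overlap with those of their neighbours. Junb, Egr1, Zfp36 and Atf3 followed with 5.65, 4.80, 4.18 and 3.02 per kilobase, each overlapping the next. Among the 12306 nuclear protein-coding genes with an exon length, Jun lay at percentiles 87.1 to 92.7 by level per kilobase over the 4 libraries. Btg2 lay at percentiles 66.6 to 78.0, Ier2 at 58.7 to 67.7, and Egr1 at 27.4 to 43.2. Zfp36 ranged more widely, from 19.6 in mitochondrial replicate 2 to 60.2 in rest replicate 1.

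Replicates differed within each fraction as well. In mitochondria, replicate 1 was above replicate 2 for Jun, Ier2 and Zfp36, by 0.43, 0.32 and 0.86 on the log2 scale. Replicate 2 was above replicate 1 for Junb, Egr1 and Btg2, with values of -1.08, -0.86 and -0.46. The median absolute difference was 0.67 over the 6554 tested genes with a mean of 10 to 60 normalized counts. In the rest fraction, the differences of the 6 genes ran from -0.42 in Junb to 0.66 in Zfp36, and the median absolute difference of those 6554 genes was 0.26. The 9 genes together had 255 and 256 normalized counts in mitochondrial replicates 1 and 2, against 331 and 299 in rest replicates 1 and 2, and Jun had the highest value of the 9 in each library.

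Other immediate early genes were read from lists. Of 23 further transcription factors of the class, among them the FOS, EGR, NR4A and KLF families, 17 were listed and 16 tested. Fosb, Fosl1, Egr2, Egr3, Egr4 and Nr4a2 are not listed. At an adjusted p-value under 0.05 from limma, 0 of the 16 were higher and 0 lower, against 2.16% and 1.39% of all tested genes. At an unadjusted p-value under 0.05, 1 was higher and 2 were lower, against 14.1% and 16.2% of all tested genes. Their median log2 fold change was -0.33, beside -0.14 for all tested genes. The median of the 16 was -0.11 without rest replicate 1, -0.53 without mitochondrial replicate 1 and -0.56 without rest replicate 2. The most abundant were Srf, the factor that binds the CArG box, with 156 ± 4.24 normalized counts in mitochondria against 127 ± 8.49 in the rest fraction (SD, n = 2 each), Klf6, with 103.5 ± 67.2 and 174 ± 9.90, and Per1, a clock gene, with 89.5 ± 21.9 and 185 ± 90.5.

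Among 25 signalling and growth genes of the immediate early class, 19 were tested, again with 0 higher and 0 lower by limma and a median log2 fold change of -0.45. At an unadjusted p-value under 0.05, 1 was higher and 2 were lower, against 14.1% and 16.2% of all tested genes. Mcl1, an inhibitor of apoptosis, led this list with 478.5 ± 118 normalized counts in mitochondria against 445 ± 33.9 in the rest fraction (SD, n = 2 each), which gave a log2 fold change of 0.08. It was followed by Rhob, a small GTPase, with 134.5 ± 50.2 and 178 ± 18.4, and Ccn2, a matricellular growth factor, with 112.5 ± 6.36 and 162.5 ± 75.7.

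The 19 upstream kinases and factors were all tested, with 0 calls in either direction and a median log2 fold change of -0.23. At an unadjusted p-value under 0.05, 1 was higher and 2 were lower, against 14.1% and 16.2% of all tested genes. Mapkapk2, a kinase below p38 that inactivates ZFP36, had 682.5 ± 223 normalized counts in mitochondria against 437.5 ± 19.1 in the rest fraction (SD, n = 2 each), for a log2 fold change of 0.60 (limma, adjusted p = 0.211). Of the 22 genes of AU-rich mRNA decay and deadenylation, 0 were called, with an unadjusted p-value under 0.05 there were 6 lower and 0 higher (16.2% and 14.1% of all tested genes), and the median was -0.40. Cnot1, the scaffold of the CCR4-NOT complex that BTG2 and ZFP36 engage, had 341 and 301 normalized counts in mitochondria against 577 and 584 in the rest fraction, or a log2 fold change of -0.86 (limma, adjusted p = 0.0601). Xrn1, the exonuclease that degrades decapped mRNAs, had 89 and 117 against 205 and 258, or a log2 fold change of -1.16 (limma, adjusted p = 0.0641).

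Of 30 cytosolic heat shock factors and chaperones, 28 were tested, 1 was called higher and 0 lower, and 23 had a positive log2 fold change, with a median of 0.54 beside -0.14 for all tested genes. The sign depended on the scaling, since the median was -0.32 after scaling to the reads outside the mitochondrial chromosome and -3.42 with the library total. Relative to the median of all tested genes, 25 of the 28 lay above it as deposited, and 25 and 24 in these scalings. Scaling moves all genes by nearly the same amount, so these counts could hardly change. At an unadjusted p-value under 0.05, 12 were higher and 1 was lower, against 14.1% and 16.2% of all tested genes. The gene called was Hspb6, a small heat shock protein of muscle, with 1476 and 1566 normalized counts in mitochondria against 569 and 540 in the rest fraction (log2 fold change 1.45, standard error 0.156, adjusted p = 0.0427 from limma). Scaled to the reads outside the mitochondrial chromosome, 0 genes of the related lists were called higher. Hspb6 was also not called with a pseudocount of 0.1, but in that setting 0 of the 12150 tested genes were called. Fits without 1 library leave a lone library in a fraction, so calls from them are not read for Hspb6. Hsp90ab1, the constitutive HSP90, had 6611 ± 1073 normalized counts against 2902.5 ± 43.1 (SD, n = 2 each), which gave a log2 fold change of 1.18 (limma, adjusted p = 0.0549). Hspa8, the constitutive relative of HSPA1A, had 2617 ± 335 and 1391.5 ± 152, or a log2 fold change of 0.91 (limma, adjusted p = 0.0654). Hspb7, a small heat shock protein of the heart, had 2087.5 ± 531 and 943 ± 199, with 1.14 (limma, adjusted p = 0.0750). Per kilobase, Hspa8 stood at 323.5 normalized counts in the rest fraction and Hspa1a at 1.85, the latter with most of its sequence shared as given above.

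Of 14 genes of the ATF4 stress response, the pathway in which Atf3 is a target, 11 were tested and 0 were called. At an unadjusted p-value under 0.05, 0 were higher and 2 were lower, against 14.1% and 16.2% of all tested genes. The median log2 fold change of the 11 was -0.11, which became -0.04 without mitochondrial replicate 1 and -0.07 without rest replicate 2. Atf4 itself had 58 and 66 normalized counts in mitochondria against 67 and 69 in the rest fraction. Hspa5, the chaperone of the endoplasmic reticulum, had 1437 and 811 against 1107 and 1145.

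**Figure D3:**
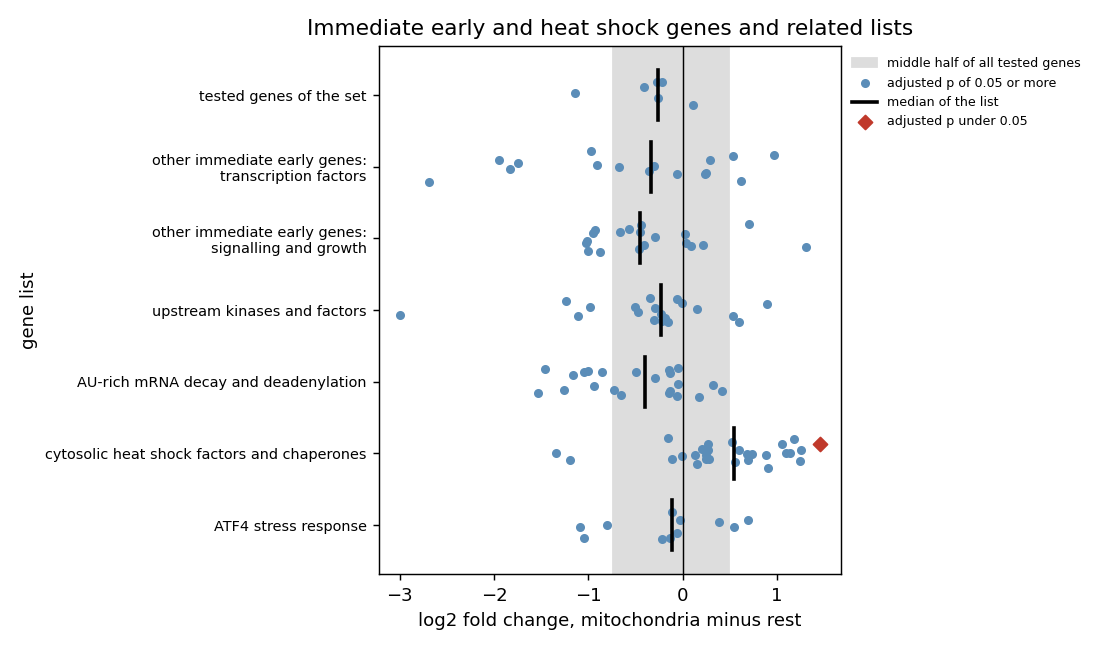
Log2 fold changes, mitochondria minus rest, of the 6 tested genes of the set and of the tested genes of 6 related lists. Each point is a gene, black bars are medians and the grey band is the interquartile range of all tested genes, -0.74 to 0.49. With the values as deposited, the median of the heat shock list, 0.54, lies to the right of the band, and Hspb6 is the only gene with an adjusted p-value under 0.05.

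The position of the 6 tested genes relative to other genes was compared between scalings. A scaling moves all genes by nearly the same amount, so this position could hardly change between scalings. With the values as deposited, recomputed size factors, the trimmed mean of M-values, the library total and the total outside the mitochondrial chromosome, 5 of the 6 lay below the median of all tested genes and 1, Egr1, lay above it. The position changed with the libraries and the filter. Without mitochondrial replicate 1, 3 lay above the median (Btg2, Egr1 and Junb), and without mitochondrial replicate 2 there were 2 (Ier2 and Jun). Without rest replicate 1, and also without the filter, 2 lay above it (Egr1 and Jun). The median itself was -0.14 as deposited and -3.93 with the library total. With the library total, 6 of the 6 were called lower, as were 12022 of the 12150 tested genes.

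**Figure D4:**
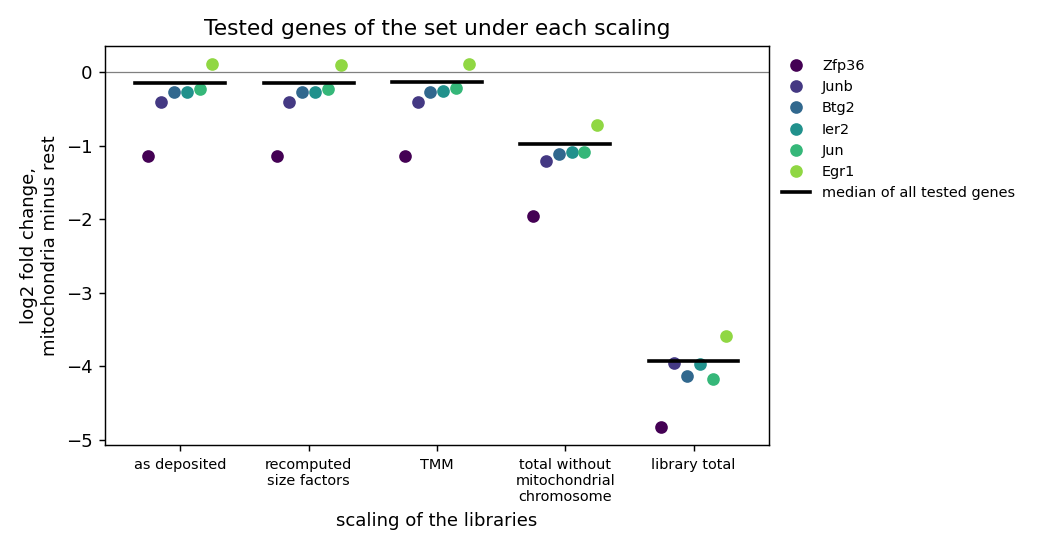
Log2 fold changes, mitochondria minus rest, of the 6 tested genes under 5 scalings of the libraries, with the median of all tested genes as black bars. The median falls from -0.14 as deposited to -0.98 and -3.93 when libraries are scaled to their totals. The 6 genes fall with it, since scaling moves all genes by nearly the same amount.

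Likeness to the mean profile of the 6 genes was measured over the 4 libraries as the Euclidean distance between log2 values centred on each gene's mean. The mean profile was -0.25 and -0.12 in mitochondrial replicates 1 and 2 and 0.24 and 0.12 in those of the rest fraction. The closest protein-coding genes were Mapk1ip1l, Mdc1, Zfp131, Zfp868 and Srsf6, at distances of 0.0193 to 0.0545 and with log2 fold changes from -0.36 to -0.33. The 6 genes themselves lay farther from their mean, from 0.306 for Btg2 to 1.11 for Zfp36.

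Markers of heart cells moved between the libraries too. As deposited, 4 of the 7 cardiomyocyte markers had a positive log2 fold change and 3 a negative one, with a median of 0.88. Among the most abundant of them, Tnnt2 was at 1.88, Myh6 at -0.20 and Ttn at -1.47. Over the 5 endothelial markers, all 5 had a negative log2 fold change, with sums of 1262 to 1429 normalized counts in mitochondria and 2248 to 2473 in the rest fraction. All 5 fibroblast and all 6 macrophage markers had a positive one as deposited. After scaling to the reads outside the mitochondrial chromosome 5 of the 5 and 5 of the 6 were positive, and with the library total 0 of either. In each of the 5 scalings all of them lay above the median of all tested genes, a position that scaling can hardly change. Their sums were 3440 to 8188 against 2175 to 3063 for fibroblasts and 470 to 1053 against 307 to 448 for macrophages. Of the 4 listed markers of smooth muscle cells and pericytes, 3 were negative, and of these 1, Myh11, was called lower (log2 fold change -3.40, adjusted p = 0.0427 from limma), with sums of 1372 to 1594 against 2488 to 3038. The 5 blood markers were all negative and summed to 50 and 341 against 824 and 440. Immediate early genes are induced in several of these cells, and the part of cell types in their values was not tested. The libraries are fractions of homogenized hearts, so numbers of cells, RNA per cell and the treatment of each fraction cannot be told apart.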

How the data were processed

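Per the labels and the study's methods, total RNA of mitochondrial and rest fractions of wild-type mouse hearts was sequenced, 2 libraries each. Per the submitters' processing notes, the authors used Trimmomatic 0.39, STAR 2.7.10a on mm10, featureCounts 2.0.2 and DESeq2 1.30.1. The versions in the study's methods partly differ. The deposited values, read here as a score, are counts divided by a size factor and rounded by the authors, so a count test was not used.

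Reads per value came from the spacing of the values, which was tested on simulated data. Limma 3.58.1 (R 4.3.3) with a mean-variance trend was fitted to log2 of the normalized count plus 1, over genes that reached 10 in 2 libraries, with two-sided p-values adjusted by the Benjamini-Hochberg method over all tested genes. An exact permutation test cannot go below 0.333 here. The 10 genes and the lists were chosen with earlier results of these data known. From each list, the 3 most abundant genes and those past the test (at most 4) were eligible to be named. Gene structures came from GENCODE M21 (GRCm38), in which 8 of the 9 listed genes have the same start and end as in the table, and promoters from RefSeq (GRCm38.p6). Alternatives were other scalings (TMM without weights), filters, pseudocounts of 0.1 and 10, a replicate block and leaving out each library. Scripts ran in Python 3.11.15 (pandas 2.3.3, numpy 2.4.6, scipy 1.17.1; figures in matplotlib 3.10.9).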

Additional observations from a re-analysis of the deposited data

How the results depend on the processing

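The 6 tested genes were not called under recomputed size factors, TMM, a pseudocount of 10, a mean above 50 normalized counts (2 genes tested) or the replicate block. With a pseudocount of 0.1 they were not called either, but no gene was called in that setting. Called lower were 6 with the library total, 2 with the total without the mitochondrial chromosome (Btg2 and Zfp36) and 1 without the filter (Hspa1a). Of 74 refitted fold changes, 63 kept direction and side of the threshold, 7 kept direction and passed it, and 4 changed sign, of which Egr1 with the total also passed it: Egr1 with the total (-3.59), with the total without the mitochondrial chromosome (-0.71) and without a library (range -0.32 to 0.54), and Junb without a library (-0.94 to 0.13). Without a library, Jun ranged from -0.44 to -0.01, Ier2 from -0.42 to -0.10, Btg2 from -0.50 to -0.04 and Zfp36 from -1.57 to -0.71. Those fits leave a lone library, assumed to vary like the others. Of the 74, those with the replicate block or another filter could not change direction, since these settings leave the fold change itself as it is.

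The 262 genes higher and 169 lower overall became 2 and 12022 with the library total, 129 and 3819 with the total without the mitochondrial chromosome, 790 and 670 above a mean of 50, 0 and 0 with a pseudocount of 0.1 (limma; 1694 and 1754 at an unadjusted p under 0.05), and 536 and 580 with a pseudocount of 10. Without the filter 630 were lower, and without any library 0 were higher or lower (limma; 590 to 2333 higher and 468 to 3324 lower at an unadjusted p under 0.05). In the related lists, 1 gene was higher and 0 were lower. These counts became 0 and 115, 0 and 39, 9 and 4, 0 and 0, and 4 and 5 in the same order, 1 and 2 without the filter, 1 and 1 with recomputed size factors and TMM, and 0 and 0 without any library. The causes were not tested.

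A replicate block in limma gave 470 genes higher and 309 lower, 5 and 2 in the related lists, and 0 of the 6 genes (smallest adjusted p = 0.152). The labels do not say that equal numbers share an animal, and the differences between replicates correlated weakly between fractions across genes, which are not independent (r = 0.13).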

Other observations

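Gene structure was compared with the fold changes of all tested genes, as values without a test. Of the 9 listed genes, 5 have no intron in their longest coding transcript, namely Jun, Junb, Ier2, Hspa1a and Hspa1b. The 200 tested protein-coding genes with a single exon had a median log2 fold change, mitochondria minus rest, of -0.04, and the 10397 with several exons had a median of -0.14. The 3402 tested protein-coding genes with a TATTTAT in the 3′ UTR had a median of -0.31 and those without had -0.05. Their 3′ UTRs also differed in length, with medians of 2276 and 931 bases, and the part of length in this difference was not tested.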
